A study of Mus musculus with 32 samples.

Results

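Voltage-gated and potassium ion channel genes were followed after brain injury in mice that carry human APOE3 or human APOE4. The set was chosen by gene symbol: sodium channel subunits (Scn), potassium channel subunits (Kcn), calcium channel subunits (Cacn), the hyperpolarisation-activated cation channels (Hcn) and the voltage-gated chloride family (Clcn), with 3 symbols left out. It held 66 of the 5582 genes in the deposited table, and 65 of the 5371 genes tested. RefSeq lists 144 protein-coding mouse genes under the same symbols, so the 66 are those that the authors' table contains and not the whole families. That table was selected by the authors on TBI against sham in the same animals, since its highest p-value for that contrast was 0.0502.

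All animals were C57BL/6 mice in which the mouse Apoe gene was replaced by a human allele on both chromosomes (targeted replacement APOE4+/+ or APOE3+/+), so no group carried mouse Apoe. TBI animals had a craniotomy of 4.5 mm over the left parietal cortex and 1 controlled cortical impact with a tip of 3 mm to a depth of 1 mm; shams were anaesthetised and had the craniotomy only. Bulk RNA was made at day 14 from the cortical and hippocampal tissue around the impact, after subcortical tissue had been cut away. The groups held 8 APOE4 TBI, 7 APOE4 sham, 8 APOE3 TBI and 7 APOE3 sham animals after 2 libraries whose title and source disagreed were left out; age was not given in the sources used here.

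These channels set the electrical behaviour of brain cells. Sodium channels carry the upstroke of the action potential, Kv channels repolarise the membrane and set firing rate, and calcium channels couple voltage to transmitter release and gene expression. Inward rectifiers and K2P (tandem-pore) channels hold the resting potential, and in astrocytes inward rectifiers clear potassium from the extracellular space. Auxiliary subunits carry no current of their own and change the gating, trafficking or anchoring of a pore.

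The 32 libraries had totals between 2262242 and 8606717 counts, 16 of them shallow and 16 deep, both kinds present in each group, and no pair of libraries was identical. Levels are given as CPM, counts scaled to library size by TMM over the genes in the table, as lowest, median and highest animal of a group, and differences as log2 with the standard error (SE) of the edgeR fit. Adjusted p-values are Benjamini-Hochberg values over all tested genes with a threshold of 0.05. The tissue label was checked against marker lists. Of 18 neuron markers 14 were in the tested table, and their summed level was 18735 to 25460 CPM in TBI animals and 25403 to 29070 CPM in shams, with all 14 lower after TBI (median log2 difference -0.27). All 10 astrocyte markers were higher (14300 to 21461 CPM in TBI, 11572 to 13888 CPM in shams, median 0.52), as were all 13 microglia markers (1671 to 3674 CPM in TBI, 873 to 1174 CPM in shams, median 1.38). Of the 7 endothelium markers 4 were tested and all 4 were higher, and of the 8 oligodendrocyte markers 2 were tested, 1 higher and 1 lower. The 2 tested markers of pericytes and the 2 of blood leukocytes were higher, and none of the 5 precursor markers was in the tested table. Of 3 tested thalamus and striatum markers 1 was higher and 1 lower. Their summed level varied between animals, at 97 to 384 CPM in APOE4 TBI and 80 to 123 CPM in APOE3 TBI animals. In shams it was 105 to 314 CPM in APOE4 and 124 to 202 CPM in APOE3. No tested marker was at 0 in every sham. Markers could be tested only where the injury-selected table held them, so nothing is read from how many of a list were higher or lower. The summed neuron markers lay below the lowest sham in 15 of 16 TBI animals, which stands beside every fall reported here, and their part in the channel results was not tested. In bulk tissue, fewer cells of a type and less RNA per cell cannot be told apart.

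Among shams the levels of the channel genes spread widely. Per kilobase of exon, high median sham levels were measured for Kcnab2 at 228 CPM per kb, Scn2b at 166, Cacnb3 at 128 and Kcna1 at 117. Kcna1, a low-threshold axonal Kv channel, is a pore gene, and the others encode auxiliary subunits. At the low end stood Kcnk6 at 2.40 CPM per kb, Kcnu1 at 1.52 and Cacna2d4 at 0.40. Kcnh8, an ELK-type Kv channel, had 0 to 8 raw counts per library in APOE4 TBI, 2 to 20 in APOE4 sham, 2 to 12 in APOE3 TBI and 4 to 11 in APOE3 sham, and was too low to be tested.

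Promoter sequence was read for 4 of the named genes. Kcns1 and Cacna1i passed for genotype in the main fit, and Kcne1l and Kcnj10 were higher after injury in that fit. Each line gives the 250 bases upstream of the RefSeq start (GRCm38.p6), 5′ to 3′ on the gene's strand. Capitals mark a Sp1 box, searched as GGGCGG on both strands (its complement is CCGCCC).
Kcns1, minus strand, chr2:164171114-164171363: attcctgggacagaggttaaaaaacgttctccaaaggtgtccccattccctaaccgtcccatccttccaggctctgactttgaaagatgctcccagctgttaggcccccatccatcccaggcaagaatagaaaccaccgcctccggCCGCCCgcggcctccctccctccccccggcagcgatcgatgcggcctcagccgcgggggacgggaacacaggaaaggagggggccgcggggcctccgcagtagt
Cacna1i, plus strand, chr15:80286988-80287237: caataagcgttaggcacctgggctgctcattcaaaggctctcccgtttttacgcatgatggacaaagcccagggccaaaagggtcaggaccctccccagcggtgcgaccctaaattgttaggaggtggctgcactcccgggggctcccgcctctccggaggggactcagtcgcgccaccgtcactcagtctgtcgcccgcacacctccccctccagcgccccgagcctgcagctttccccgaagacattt
Kcne1l, minus strand, chrX:142306199-142306448: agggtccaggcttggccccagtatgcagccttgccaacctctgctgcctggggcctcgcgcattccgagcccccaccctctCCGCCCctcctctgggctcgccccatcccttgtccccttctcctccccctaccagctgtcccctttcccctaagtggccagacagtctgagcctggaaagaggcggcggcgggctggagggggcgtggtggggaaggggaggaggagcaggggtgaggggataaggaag
Kcnj10, plus strand, chr1:172340960-172341209: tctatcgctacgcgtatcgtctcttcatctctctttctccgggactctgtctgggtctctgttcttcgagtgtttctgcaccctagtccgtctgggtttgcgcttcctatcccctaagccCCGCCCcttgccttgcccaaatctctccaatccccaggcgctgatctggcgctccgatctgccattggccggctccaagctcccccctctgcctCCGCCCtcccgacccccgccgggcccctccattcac
The box occurs once in Kcns1 and Kcne1l, at 2 places in Kcnj10 and nowhere in this window of Cacna1i. RefSeq promoters were at hand for 45 of the 66 genes. A Sp1 box was present in at least 1 promoter of 31 of these 45 genes (68.9%), beside 45.8% of 17492 protein-coding genes. Counted per promoter it was in 32 of 73 (43.8%), beside 32.7% of 32851 promoters of all genes. The median GC content of the first promoter was 62%, beside 55.2% for the protein-coding genes. The cAMP response element TGACGTCA was found in 1 gene, Clcn4 (2.22%, beside 2.20% of protein-coding genes). The left part of the RE1 motif of the neuronal repressor REST (TTCAGCACC on both strands) was in none of the 45, beside 0.377% of protein-coding genes. Such matches describe letters and not binding.

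After injury, 56 of the 65 tested channel genes were lower, 6 were higher and 3 did not pass. The median log2 difference was -0.30, beside 0.10 over all tested genes. Among all tested genes 94.1% passed, 48.2% higher and 45.9% lower, and since the table was selected on this contrast nothing is read from the count of calls. With total-count scaling in place of TMM, 47 channel genes were lower and 7 higher (median -0.21, beside 0.19 over all genes), while over all genes 2787 of 3972 calls were higher, against 2589 of 5053 with TMM. The 9 falls that did not pass with that scaling were Cacna1g, Cacnb2, Cacnb3, Cacng7, Clcn4, Kcnj12, Kcnk12, Kcnn2 and Scn3b. The mean of the 65 genes, as log2 (CPM + 1) relative to the mean of all shams, lay between -0.46 and -0.11 in TBI animals and between -0.06 and 0.07 in shams. The authors' deposited table gives a negative log2 coefficient to 59 of the 66 genes.

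**Figure D1:**
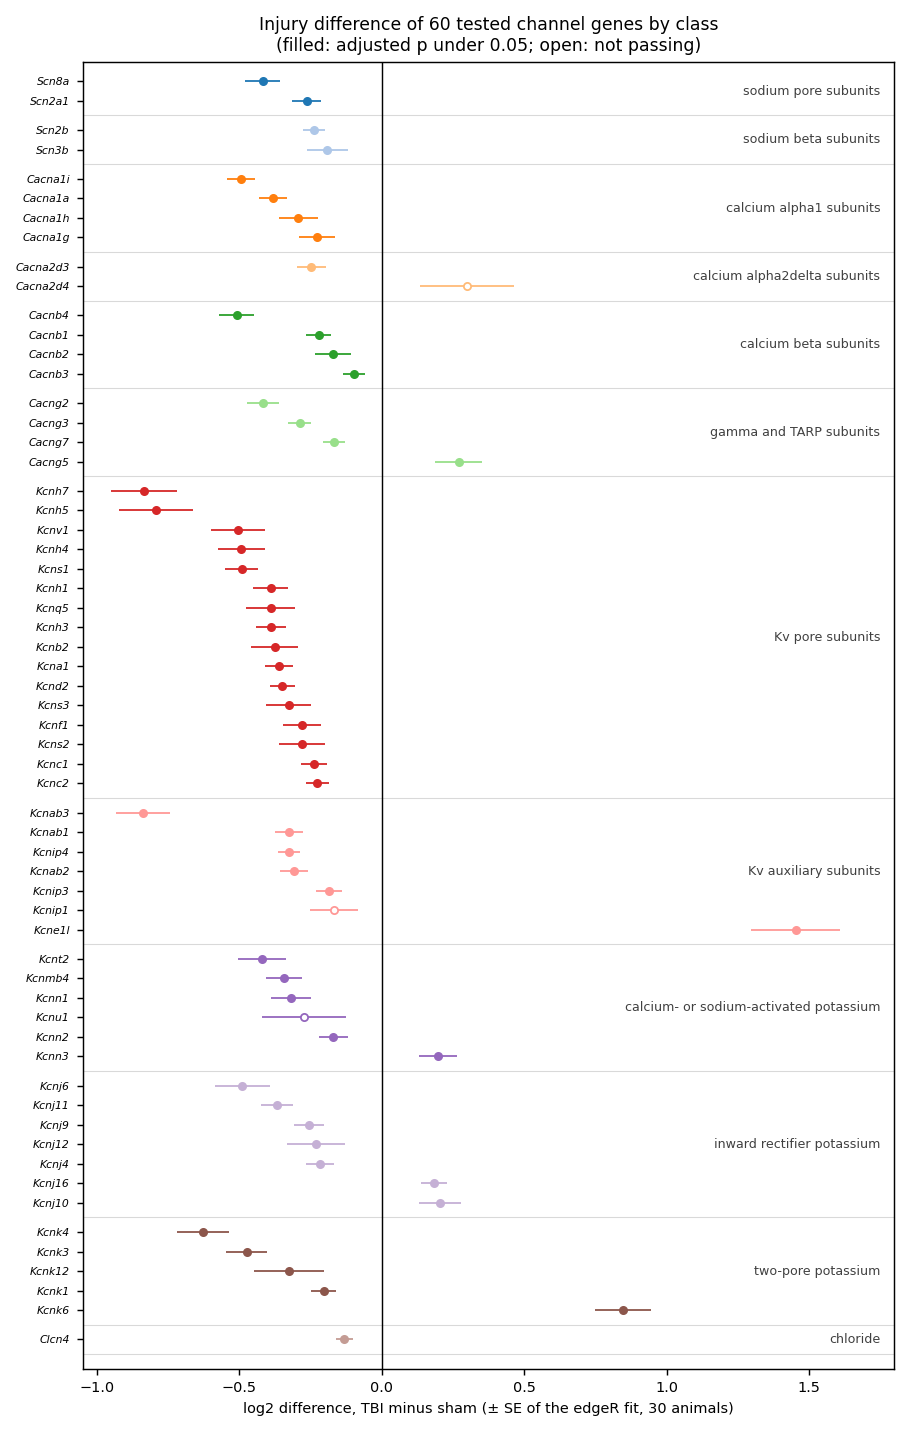
Log2 difference of TBI minus sham for 60 of the 65 tested channel genes (x axis, ± SE of the fit over 30 animals), grouped by class, with filled points past an adjusted p of 0.05 and open points not passing. All 16 Kv pore genes drawn lie left of 0, and the 6 filled points right of 0 are Kcne1l, Kcnk6, Cacng5, Kcnj10, Kcnn3 and Kcnj16.

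Both tested sodium channel pore genes fell, of 9 that RefSeq lists under the same symbols. Scn8a, the main sodium channel of nodes of Ranvier and mature axon initial segments, had 487, 646 and 794 CPM (lowest, median, highest) in TBI animals and 717, 870 and 1024 CPM in shams. Of the 16 TBI animals 14 were below the lowest sham (log2 difference -0.42 ± 0.06, adjusted p = 4.38e-07). Scn2a1, the sodium channel of immature axons and proximal initial segments, had 622, 767 and 1002 CPM in TBI animals and 817, 939 and 1091 CPM in shams, and fell less (-0.26 ± 0.05, adjusted p = 4.55e-05). The 3 beta subunit genes, which encode cell adhesion proteins that modulate sodium channels, fell as well, with a median of -0.24. Scn2b had 522, 669 and 736 CPM in TBI animals and 733, 774 and 809 CPM in shams, and 15 of 16 TBI animals were below the lowest sham (-0.24 ± 0.04, adjusted p = 2.48e-06).

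The 4 tested genes for calcium channel alpha1 subunits, the pores, fell with a median of -0.34. RefSeq lists 10 such genes. Cacna1i, a T-type (low-voltage-activated) channel, had 130, 169 and 204 CPM in TBI animals and 188, 234 and 286 CPM in shams, so the groups overlapped for 3 TBI animals (-0.49 ± 0.05, adjusted p = 4.47e-10). Cacna1a, the P/Q-type channel of presynaptic terminals, had 217, 251 and 302 CPM in TBI animals and 295, 320 and 376 CPM in shams (-0.38 ± 0.05, adjusted p = 9.76e-08). The other T-type genes fell less, Cacna1h by 0.29 ± 0.07 and Cacna1g by 0.23 ± 0.06.

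Among auxiliary subunits of calcium channels the 4 beta genes fell, by 0.10 for Cacnb3, 0.22 ± 0.04 for Cacnb1 (adjusted p = 5.38e-05) and 0.51 ± 0.06 for Cacnb4. Cacnb4, the beta subunit whose loss gives the lethargic mouse its seizures, had 364, 452 and 726 CPM in TBI animals and 551, 683 and 797 CPM in shams, with 12 TBI animals below the lowest sham (adjusted p = 2.76e-08). It overlaps 1433 exon bases of a transcript on the opposite strand, and the strand setting of the counting was not given in the sources used here. Cacna2d3, an alpha2delta subunit, fell by 0.25 ± 0.05, whereas Cacna2d4 had 2.60, 4.17 and 8.26 CPM in TBI animals and 1.47, 3.79 and 6.39 CPM in shams, with an adjusted p of 0.0831. Of the gamma and TARP family, which includes the AMPA receptor auxiliary proteins, Cacng2 (stargazin) fell by 0.42 ± 0.06 (adjusted p = 1.57e-07), Cacng3 by 0.29 ± 0.04 (adjusted p = 4.53e-07) and Cacng7 by 0.17. Cacng5, a TARP of the same family, was higher: 20.9, 30.2 and 36.8 CPM in TBI animals and 17.2, 23.6 and 28.4 CPM in shams, with 10 of 16 TBI animals above the highest sham (0.27 ± 0.08, adjusted p = 0.00405). In deep libraries alone it did not pass (0.23, adjusted p = 0.0991).

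All 19 tested Kv pore genes fell, with log2 differences between -0.83 and -0.23 and a median of -0.39. The 2 largest falls were in Kcnh7 and Kcnh5, of the EAG and ERG families. Kcnh7, an ERG channel, had 24.0, 39.4 and 64.3 CPM in TBI animals and 48.2, 74.4 and 96.9 CPM in shams, with 13 TBI animals below the lowest sham (-0.83 ± 0.12, adjusted p = 2.84e-07). Kcnh5, an EAG channel, had 9.42, 21.9 and 45.0 CPM in TBI animals and 27.7, 38.4 and 50.0 CPM in shams (-0.79 ± 0.13, adjusted p = 4.31e-06). Kcnh7 overlaps Gca on the opposite strand over 696 exon bases, where reads can be told apart only if the counting used strand.

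The electrically silent subunits Kcns1 (-0.49 ± 0.06) and Kcnv1 (-0.50 ± 0.09), which form channels only together with other Kv pores, also fell. The Kv3 genes Kcnc1 (-0.24) and Kcnc2 (-0.23) were at the small end of the class. Kcnd2, the A-type channel of dendrites, had 161, 227 and 272 CPM in TBI animals and 255, 282 and 312 CPM in shams, and 15 of 16 TBI animals were below the lowest sham (-0.35 ± 0.04, adjusted p = 6.94e-08). Kcnq5, an M-current gene, fell by 0.39.

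Of the 7 tested auxiliary genes of Kv channels 5 fell, 1 was higher and Kcnip1 did not pass (adjusted p = 0.0570). Kcnab3, a cytoplasmic beta subunit, fell most among all 65 genes. It had 39.2, 63.9 and 106 CPM in TBI animals and 96.0, 113 and 131 CPM in shams, with 15 of 16 TBI animals below the lowest sham (-0.84 ± 0.09, adjusted p = 6.21e-09). It overlaps 147 exon bases of an antisense gene, Kcnab3os. Its relatives Kcnab1 and Kcnab2 fell by 0.33 and 0.31, and the calcium-sensing Kv4 partners Kcnip4 and Kcnip3 by 0.32 and 0.19.

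Kcne1l, a single-span auxiliary subunit gene on chromosome X, went the other way. It had 8.39, 16.8 and 23.6 CPM in TBI animals and 2.58, 6.10 and 8.21 CPM in shams, 2.74-fold higher (1.45 ± 0.16, adjusted p = 2.29e-09). All 16 TBI animals were above the highest sham. It was the 1 channel gene of 65 whose TBI and sham animals did not overlap, beside 6.18% of all tested genes (5.59% higher, 0.596% lower). Its raw counts were 25 to 190 per library in TBI animals and 6 to 55 in shams.

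**Figure D2:**
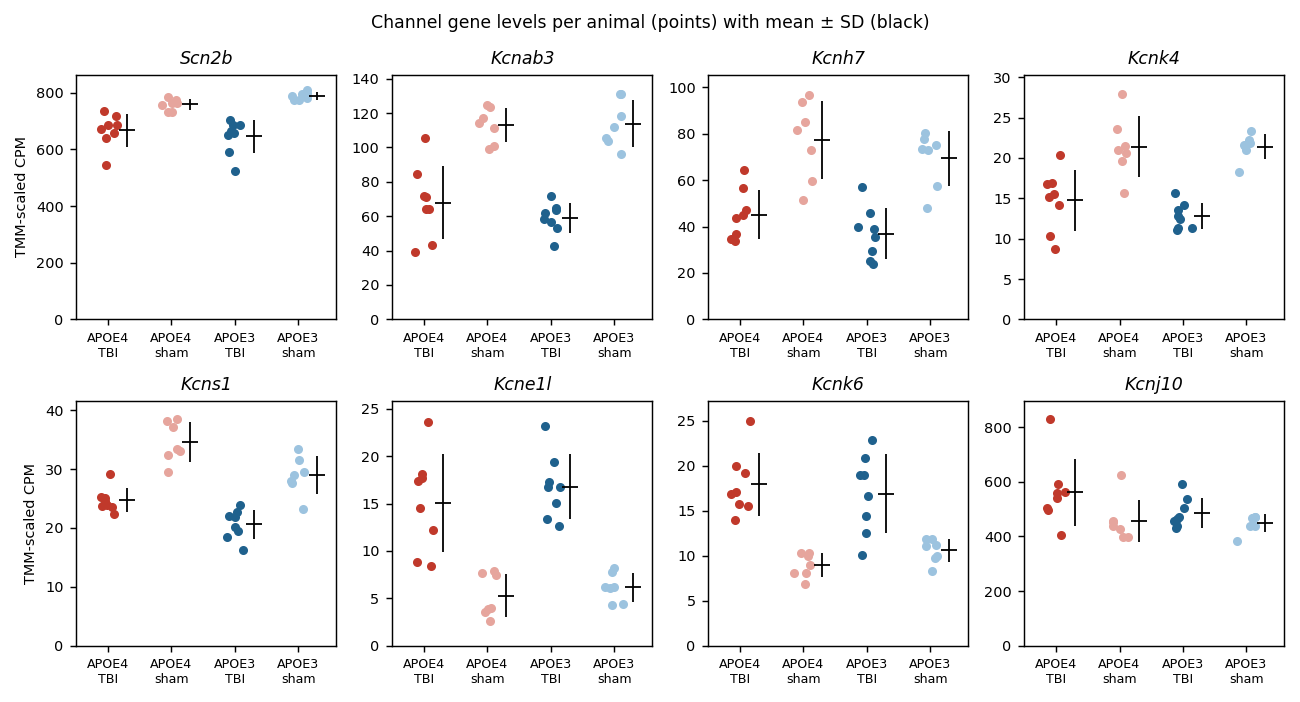
TMM-scaled CPM of 8 channel genes in each animal (points; y axes start at 0) for the 4 groups on the x axis, with mean ± SD in black. Scn2b, Kcnab3, Kcnh7, Kcnk4 and Kcns1 sit lower in both TBI groups than in their shams, while Kcne1l has 16 TBI animals at 8.39 CPM or more and no sham above 8.21 CPM.

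Among the 6 tested genes of calcium- or sodium-activated potassium channels, of 12 in RefSeq, 4 fell and Kcnn3 was higher. Kcnt2, a sodium-activated channel, had 30.3, 51.1 and 64.4 CPM in TBI animals and 57.7, 66.8 and 81.2 CPM in shams, with 12 TBI animals below the lowest sham (-0.42 ± 0.08, adjusted p = 5.66e-05). Kcnmb4, the neuronal beta4 subunit of BK channels, fell by 0.34 ± 0.06, and overlaps antisense genes over 693 and 355 exon bases. The SK channel genes, which underlie the afterhyperpolarisation, were split: Kcnn1 fell by 0.32 ± 0.07 and Kcnn2 by 0.17 ± 0.05, whereas Kcnn3 was higher by 0.20 ± 0.07 (adjusted p = 0.00822). Kcnn3 had 44.3, 57.5 and 68.2 CPM in TBI animals and 38.5, 48.3 and 63.6 CPM in shams, and 1 TBI animal was above the highest sham. With the 2 disputed libraries placed by their source names Kcnn3 did not pass (adjusted p = 0.252), nor did it in shallow libraries alone (0.21, adjusted p = 0.113). Kcnn2 did not pass in shallow libraries alone either (-0.10, adjusted p = 0.290). Kcnu1, known in mouse as a sperm potassium channel, had raw counts of 7 to 50 per library in TBI animals and 9 to 54 in shams. It did not pass (adjusted p = 0.0742). It passed as lower without APOE4 TBI animal 4 or 6, APOE3 TBI animal 5 or 6 or APOE4 sham 6 (adjusted p from 0.0302 to 0.0496). It also passed as lower with the 2 disputed libraries placed by their titles (-0.36, adjusted p = 0.0219).

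The 7 tested inward rectifiers, of 15 in RefSeq, divided into 5 genes that fell and 2 that were higher. The falling genes included Kcnj6 and Kcnj9, subunits of G protein-gated channels, Kcnj11, the pore of ATP-sensitive channels, and Kcnj4 and Kcnj12, classical strong rectifiers. Kcnj6 had 42.5, 64.3 and 86.4 CPM in TBI animals and 64.9, 91.8 and 111 CPM in shams (-0.49 ± 0.10, adjusted p = 5.66e-05), and Kcnj11 fell by 0.37 ± 0.06. Kcnj12 fell by 0.23 ± 0.10 (adjusted p = 0.0341), but not without APOE4 TBI animal 6, APOE3 TBI animal 1, 2 or 3, APOE4 sham 2 or APOE3 sham 2 (adjusted p from 0.0515 to 0.0613), nor in either depth class alone (adjusted p = 0.164 in shallow and 0.121 in deep libraries).

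Kcnj10, which encodes the main potassium channel of astrocytes, was higher, at 406, 504 and 831 CPM in TBI animals and 382, 446 and 623 CPM in shams (0.20 ± 0.07, adjusted p = 0.0119). A single TBI animal was above the highest sham, and with the 2 disputed libraries placed by their source names the gene did not pass (adjusted p = 0.0751), nor did it in deep libraries alone (0.22, adjusted p = 0.124). Kcnj16, its partner in heteromeric astrocyte channels, had 67.0, 83.8 and 91.4 CPM in TBI animals and 61.8, 71.0 and 88.0 CPM in shams (0.18 ± 0.04, adjusted p = 0.000604), and in shallow libraries alone it stood at 0.08 (adjusted p = 0.282). The 10 astrocyte markers rose in the same animals, with a median of 0.52, and their part in these rises was not tested.

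Of the 5 tested K2P genes, of 14 in RefSeq, 4 fell and 1 was higher. Kcnk4, a mechanosensitive and lipid-sensitive leak channel, had 8.70, 13.8 and 20.4 CPM in TBI animals and 15.7, 21.5 and 27.9 CPM in shams, with 13 TBI animals below the lowest sham (-0.63 ± 0.09, adjusted p = 5.45e-07). It shares 587 exon bases with Catsperz on the same strand, where reads cannot be assigned to either gene. Kcnk3, an acid-sensitive leak channel, fell by 0.47 ± 0.07, and Kcnk1, a weak inward rectifier of the same family, by 0.20 ± 0.04.

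Kcnk6, a K2P channel known in mouse macrophages for potassium efflux upstream of the NLRP3 inflammasome, was higher. It had 10.1, 17.0 and 25.005 CPM in TBI animals and 6.86, 9.98 and 11.9 CPM in shams, with 15 of 16 TBI animals above the highest sham (0.85 ± 0.10, adjusted p = 1.09e-08). All 13 microglia markers were higher in the same comparison, and their part in this rise was not tested.

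In the chloride family 1 gene was tested. Clcn4, an endosomal chloride/proton exchanger, had 406, 467 and 503 CPM in TBI animals and 469.7, 506 and 530.4 CPM in shams (-0.13 ± 0.03, adjusted p = 0.000388).

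A list of 70 genes that bind, anchor or modulate these channels, or encode channels of other families, gave 41 tested genes. After injury 33 of these were lower, 6 higher and 2 did not pass, beside 45.9% lower and 48.2% higher over all tested genes. Partner genes could be tested only where the injury-selected table held them, so nothing is read from these counts. Their median was -0.19 beside -0.30 for the channel genes. The falls included Stac2, an adaptor of L-type calcium channels (-0.71), Cabp1, a calcium sensor of calcium channels (-0.61), Lrrc55, a BK gamma subunit (-0.56), Ank3, the ankyrin that anchors sodium channels at the axon initial segment (-0.35), and Amigo1, a cell adhesion protein that binds Kv channels (-0.22). The 6 higher genes were Gem (1.07) and Rrad (0.59), small GTPases that inhibit calcium channels, the proton channel Hvcn1 (0.88), Lgi4 (0.40), and the anoctamins Ano6 (0.39) and Ano2 (0.33).

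**Figure D3:**
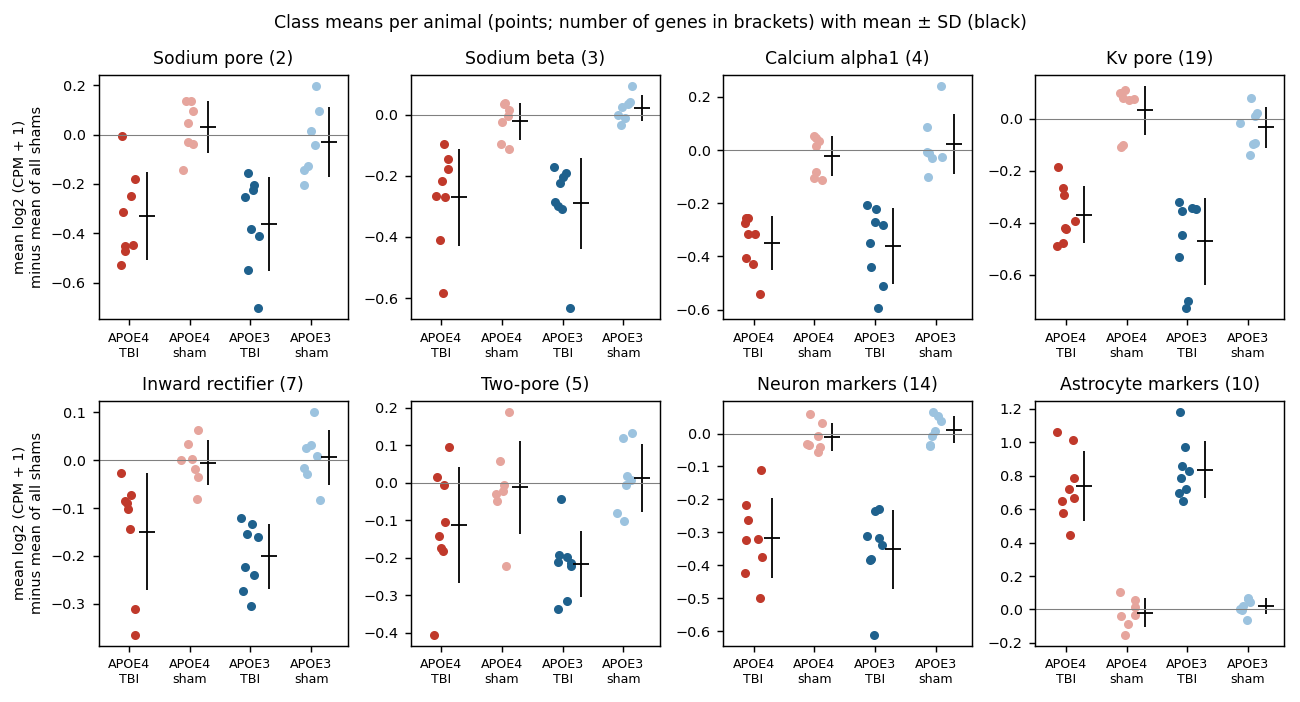
Mean log2 (CPM + 1) of the genes of 6 channel classes and 2 marker lists in each animal (points, number of genes in brackets), relative to the mean of all shams at 0, with mean ± SD in black. Kv pore means run from -0.73 to -0.18 in TBI animals and from -0.14 to 0.11 in shams; neuron marker means run from -0.61 to -0.11 in TBI animals and from -0.06 to 0.07 in shams.

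Class means per animal showed how the TBI animals varied. The mean of the 19 Kv pore genes was lowest in APOE3 TBI animals 8 and 4, at -0.73 and -0.70, and highest in APOE4 TBI animal 4 at -0.18. The neuron marker mean was lowest in the same APOE3 TBI animal 8, at -0.61, and that animal also had the highest astrocyte marker mean, 1.18. In APOE3 TBI animal 4 the neuron marker mean was -0.38. The highest neuron marker mean among TBI animals, -0.11, was in APOE4 TBI animal 2, whose Kv pore mean was -0.42. Calcium alpha1 means lay between -0.59 and -0.21 in TBI animals and between -0.11 and 0.24 in shams. Neither these nor the Kv pore means overlapped between TBI animals and shams, while sodium beta, inward rectifier and K2P means did overlap. The means of the 41 tested partner genes (-0.27 to -0.09 in TBI animals, -0.05 to 0.05 in shams) did not overlap either. The same held for the 14 neuron markers (-0.61 to -0.11 and -0.06 to 0.07). The table was selected on this contrast, so nothing is read from the lack of overlap.

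Within APOE4 mice, 47 channel genes were lower and 7 higher after injury, with a median of -0.27 beside 0.07 over all genes (64.8% of all tested genes passed, 33.9% higher and 30.9% lower). Within APOE3 mice, 55 were lower and 3 higher, with a median of -0.32 beside 0.09 (72.3% of all tested genes passed, 38% higher and 34.3% lower). The genes lower in both genotypes numbered 46 (70.8%, beside 24.5% of all tested genes), and Kcne1l, Kcnj16 and Kcnk6 were higher in both (4.62%, beside 28.8%). Since the table was selected on injury, nothing is read from these counts. Kcne1l differed by 1.44 ± 0.23 in APOE4 and 1.47 ± 0.22 in APOE3, and Kcnk6 by 0.99 ± 0.14 in APOE4 and 0.71 ± 0.14 in APOE3. Kcnj10 passed in APOE4 (0.29 ± 0.10, adjusted p = 0.0195) and stood at 0.12 ± 0.10 in APOE3 (adjusted p = 0.267), and the test of the difference between them gave 0.17 ± 0.15 (unadjusted p = 0.266). Of the 65 genes 63 had the same sign in both genotypes (96.9%, beside 99.6% of all tested genes), and 49 were more negative in APOE3 (75.4%, beside 48.3%). Of the 14 tested neuron markers 11 were more negative in APOE3 as well. All these genes were measured in the same animals and are not separate observations, so nothing is read from this count. With total-count scaling the lower and higher genes numbered 32 and 7 in APOE4 and 42 and 3 in APOE3. Over all genes 2309 of 2973 calls in APOE4 and 2465 of 3351 in APOE3 were then higher, against 1819 of 3479 and 2040 of 3881 with TMM.

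Whether the injury difference itself differed by genotype was tested as an interaction. No channel gene passed (0 of 65), beside 0% of all tested genes by edgeR, and 0 of 65 also with DESeq2 and with limma-voom. At an unadjusted p under 0.05 there were 4 (6.15%, beside 1.84% of all tested genes): Kcnu1, Kcnn2, Kcnn1 and Cacna2d4, each with an adjusted p of 0.999. The 95% interval of an interaction reached a median of 0.25 on the log2 scale to either side over the 65 genes.

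Kcnn2 had 56.9, 66.1 and 71.3 CPM in APOE4 TBI and 57.6, 65.4 and 73.9 CPM in APOE4 sham animals. In APOE3 it had 50.1, 60.0 and 64.5 CPM in TBI and 67.0, 72.8 and 82.6 CPM in sham animals. Its interaction was 0.26 ± 0.09 (unadjusted p = 0.00929). Kcnn1 had 24.3, 32.5 and 39.2 CPM in APOE4 TBI and 31.2, 34.9 and 41.5 CPM in APOE4 sham animals. In APOE3 it had 25.1, 31.3 and 36.1 CPM in TBI and 40.4, 43.0 and 47.3 CPM in sham animals (interaction 0.33 ± 0.13, unadjusted p = 0.0182). Neither interaction passed. Both genes were named for their small interaction p, so the layout of their levels follows from that choice and adds no support. Kcnu1 (0.84 ± 0.26) and Cacna2d4 (0.71 ± 0.31) were among the lowest genes of the set.

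**Figure D4:**
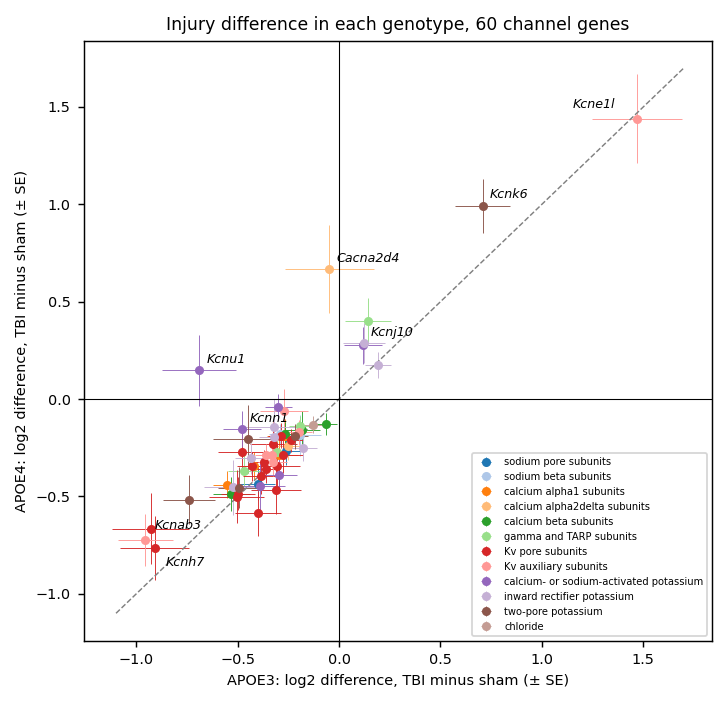
Log2 difference of TBI minus sham in APOE4 mice (y axis, ± SE) and in APOE3 mice (x axis, ± SE) for 60 of the 65 tested channel genes, coloured by class, with the line of equal difference dashed. Most genes lie in the lower left, Kcne1l and Kcnk6 in the upper right, and Kcnu1 and Cacna2d4 farthest above the line, with no interaction past the threshold.

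The genotype comparison over both injury states was not the contrast the table was selected on. In APOE4 mice 3 of the 65 channel genes were higher than in APOE3 mice and 0 were lower, beside 2.01% of all tested genes (1.19% higher, 0.819% lower). Kcns1 and Cacna1i, among these 3, are described here. Kcns1, the silent subunit whose promoter is printed above, had 22.4, 24.3 and 29.1 CPM in APOE4 TBI and 16.3, 21.0 and 23.9 CPM in APOE3 TBI animals. In shams it had 29.6, 33.3 and 38.5 CPM in APOE4 and 23.3, 29.1 and 33.5 CPM in APOE3 (0.25 ± 0.06, adjusted p = 0.0178). Cacna1i had 165, 182 and 204 CPM in APOE4 TBI and 129.97, 164 and 177 CPM in APOE3 TBI animals. In shams it had 220.3, 257 and 268 CPM in APOE4 and 188, 225 and 286 CPM in APOE3 (0.18 ± 0.05, adjusted p = 0.0471). For both genes the genotypes overlapped among TBI animals and among shams. The 3 tested thalamus and striatum markers also had positive genotype differences over both injury states (median 0.14), of which 0 passed. Their part in the channel differences was not tested. Kcns1 is at chr2:164163619-164171113 and Cacna1i at chr15:80287238-80398292 (GRCm38.p6).

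Kcns1 passed with each of the 30 libraries left out in turn (adjusted p from 0.0082 to 0.035), and Cacna1i lost its call in 20 of 30 such fits. Within shallow libraries alone Kcns1 and Cacna1i differed by 0.32 and 0.09, and within deep libraries alone by 0.21 and 0.26, none of which passed. With the 2 disputed libraries placed by their titles or by their source names, Kcns1 passed and Cacna1i did not (adjusted p = 0.383 and 0.161 for Cacna1i). Within shams and within TBI animals no channel gene passed for genotype, beside 0.168% (0.149% higher, 0.0186% lower) and 0.447% (0.335% higher, 0.112% lower) of all tested genes, and 4 and 15 channel genes had an unadjusted p under 0.05 (6.15% and 23.1%, beside 5.77% and 11.2% of all tested genes). Among the 41 tested partner genes 1 passed for genotype over both injury states, as higher in APOE4, beside 2.01% of all tested genes (1.19% higher, 0.819% lower).

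The animal titles carry a letter, F or M, that the labels do not spell out, with 15 animals each in the fit. In animals lettered F, 9 channel genes were lower and 1 higher than in animals lettered M, beside 16.7% of all tested genes (10.1% higher, 6.59% lower). Kcnip3, a calcium sensor that binds Kv4 channels, had 226, 289 and 343 CPM in F and 295, 323 and 396 CPM in M animals (-0.24 ± 0.04, adjusted p = 0.000876). Cacng3 had 134, 163 and 195 CPM in F and 159, 196 and 251 CPM in M animals (-0.21 ± 0.04, adjusted p = 0.00127). Both genes overlapped between the letters. The other lower genes were Cacnb4, Kcnd2, Kcnip4, Kcnj11, Kcnj12, Kcnk3 and Kcnmb4, with differences between -0.32 and -0.13 and adjusted p between 0.0196 and 0.0408. With total-count scaling 5 genes were lower and 1 higher, and over all genes 621 of 866 calls were higher, against 541 of 895 with TMM. Without APOE4 TBI animal 6 or 7 the lower genes numbered 4 and 5. Over all genes 624 of 5365 and 653 of 5340 then passed (363 and 378 higher), against 895 of 5371 (541 higher). The 1 higher channel gene did not pass without APOE4 TBI animal 3, 7 or 8 or APOE4 sham 4. Nor did it without APOE3 TBI animal 3, 4 or 6 or APOE3 sham 6. Over all genes between 378 and 590 were higher in those fits. Neuron markers were lower in F at 2 of 14 genes, microglia markers higher at 4 of 13 and astrocyte markers at 3 of 10, and their part in this comparison was not tested.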

How the data were processed

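Bulk RNA of 32 libraries was counted per gene. The authors deposited raw read counts for 5582 genes, with their own log2 coefficient and p-value for TBI against sham, per the file headers. Per the submitters' processing notes, Subread 1.5.0 and edgeR 3.14.0 were used with mm10. Which step each tool did, the annotation and the strand setting could not be read from the labels.

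The 30 animals were fitted with edgeR 4.0.16 under R 4.3.3, using TMM factors, filterByExpr and quasi-likelihood F-tests; the filter dropped 211 genes. The additive model held injury, genotype and title letter, and a model of 4 groups plus letter gave the within-group and interaction contrasts. Benjamini-Hochberg adjustment ran over the 5371 tested genes. CPM and directions hold within the deposited genes, over which TMM takes changes to balance. The biological coefficient of variation was 11.5%. The labels name separate animals as replicates. Scripts were tested on simulated counts.

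The rule for genes to name took the 2 largest injury differences in each class, every riser, every gene past the threshold for genotype, interaction or letter, the 3 smallest p for interaction and for genotype, and the highest-count gene of each class; other members named in the text were named after their values were seen. Some genes are not reported here by name or in figures, while counts, medians and class means include them. The members, classes, partner list and marker lists were chosen with earlier results of these data known. Alternatives were DESeq2 1.42.0, limma-voom (limma 3.58.1), total-count scaling, no filter, no letter, depth class as covariate, each depth class alone, both placements of the disputed libraries, contrasts fitted on their own animals alone and, added after seeing the data, each library left out in turn. Exon lengths and overlaps came from GENCODE, and coordinates and promoters from RefSeq (GRCm38.p6).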

Additional observations from a re-analysis of the deposited data

Results flagged for a closer look

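Of 164 groups of animals examined over 41 named channel genes, 8 had 1 animal far from the others of its group, and chance alone would flag about 1 group in 20. Kcnj10 did so in 3 groups: 1 APOE4 TBI animal had 831 CPM with the other 7 at 406 to 591, 1 APOE4 sham had 623 CPM with the others at 396 to 456, and 1 APOE3 sham had 382 CPM with the others at 438 to 471. That APOE4 TBI animal and that APOE4 sham also had the highest thalamus and striatum marker means (0.63 and 0.55 on log2, relative to all shams). The APOE3 sham stood at -0.04. The part of these markers in the Kcnj10 levels was not tested. In APOE3 TBI, animal 8 was low for Kcnd2 (161 CPM, others 217 to 253) and for Kcnk1 (138 CPM, others 154 to 167), and animal 3 was high for Cacnb4 (552 CPM, others 387 to 465). Kcnj16 was high in 1 APOE3 sham (88.0 CPM, others 68.3 to 75.8) and Kcns1 in 1 APOE4 TBI animal (29.1 CPM, others 22.4 to 25.2).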

How the results depend on the processing

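Counts of channel genes lower after injury stayed between 47 and 58 under every alternative tried. Over all genes the lower share was 45.9% in the main fit, 22.1% with total-count scaling, 29.1% in shallow and 36.8% in deep libraries alone. With each library left out in turn 55 to 58 channel genes were lower and 6 higher, while 4761 to 5090 passed over all genes. The higher channel genes numbered 4 in shallow libraries alone, 4 in deep libraries alone and 4 with the disputed libraries placed by source name. Over all genes 33.1%, 37.8% and 42.6% were then higher, against 48.2% in the main fit. The table was selected on injury, so nothing is read from these counts. In the injury comparison over both genotypes no named gene changed sign under any alternative. Nor did the genes named for genotype, interaction or title letter in those comparisons. Signs within each genotype were not followed gene by gene, and the interaction was not refitted with single libraries left out. Within APOE3, shallow libraries alone gave 1 higher gene (18% of all genes were higher, against 38% in all libraries). Within APOE4, deep libraries alone gave 20 lower and 2 higher genes (8.04% and 16.5% of all genes, against 30.9% and 33.9%), and 4 were higher with the disputed libraries placed by source name (28% of all genes). For genotype, the count of higher genes was 6 with DESeq2 (Cacng3, Cacng7 and Kcnip4 added, 1.77% of all genes). It was 0 in shallow and 0 in deep libraries alone (0.173% and 0.0731% of all genes). With the disputed libraries placed by title it was 1 (0.66%). With each library left out it was 2 to 5, and over all genes 42 to 92 were then higher. In shams fitted alone it was 1 (0.353% of all genes). For the title letter, the lower genes numbered 5 with total-count scaling (4.56% of all genes), 5 in shallow and 0 in deep libraries (3.51% and 0%). By source name they numbered 3 (3.63%). The higher genes numbered 2 in shallow libraries, 0 in deep libraries and 0 by title (3.94%, 0.0365% and 8.04% of all genes). With each library left out 4 to 12 were lower and 0 to 2 higher. Over all genes 624 to 1041 then passed in either direction, and 363 to 641 were higher. Splits by depth hold fewer animals; the causes of the other changes were not tested. No paired analysis was possible because the labels give no replicate numbers that groups share. Low counts limit the precision for genes such as Cacna2d4 and Kcnu1.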
